A study of Mus musculus with 24 samples.

Results

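The genes described here are 10 genes by which phagocytes sense and swallow dying cells and debris, taken as a fixed list out of 35519 genes that had a transcript in the quantification, of which 26375 had any read. They are Trem2, Tyrobp and Syk of the TREM2 receptor complex, the receptor kinases Mertk and Axl, the bridging proteins Gas6, Pros1 and Mfge8, and the Rac activators Elmo1 and Dock2. RNA was sequenced from microglia, the macrophages that live in brain tissue, sorted as Ly6C-CD11b+Fcrls+ cells from whole brain of C57BL/6 mice, with 1000 cells per Smart-Seq2 library. All 10 genes passed the filter on low counts that left 9803 genes for testing.

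The 24 libraries fell into 8 groups. Phagocytosis groups had 4 libraries each and came from female NL4-/-, female WT, male NL4-/- and male WT mice. Control groups had 2 libraries each from the same sexes and genotypes. NL4-/- mice lack neuroligin-4, a synaptic adhesion protein, and the knockout itself was not analysed here. The labels give neither the age of the mice nor what the cells of the phagocytosis groups had taken up, nor where. Per the series' design the samples are biological replicates, 5 in a phagocytosis group, and 4 of each 5 are analysed here. All groups share the strain and the sort.

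Phagocytes recognise a dying cell by phosphatidylserine, a lipid that moves to the outer face of its membrane. TREM2 binds lipids and lipoproteins directly and has no signalling tail of its own, so it signals through the adaptor DAP12, the product of Tyrobp, which recruits the kinase SYK. MERTK and AXL do not touch the lipid and are instead engaged by GAS6 and protein S, the product of Pros1, which bridge phosphatidylserine to the receptor, whereas MFGE8 bridges it to integrins. ELMO1 and DOCK proteins then switch on the GTPase Rac, which drives the actin cup around the particle. MERTK is typical of resting tissue macrophages including microglia, and AXL is known to be induced by interferon and inflammatory stimuli.

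Total expected reads per library ran from 421107 to 1013797. Satellite-like genes, whose transcripts share sequence with the mouse major satellite repeat, took 1.52% to 16.3% of a phagocytosis library and 4.05% to 23.2% of a control library, and exceeded 20% in 3 control libraries (female NL4-/- control 1, male NL4-/- control 1 and male WT control 2). Results are therefore also given without these 3, which leaves 1 control library each in female NL4-/-, male NL4-/- and male WT. In that fit fewer control libraries and a lower satellite share cannot be told apart. The defining microglial markers were present in every library: the summed level of 10 of them, among them P2ry12 and Tmem119, was 18405 to 44102 CPM of library total (median 26705; CPM, counts scaled to a library sum of 1e6) in phagocytosis libraries and 32406 to 46262 (median 41385) in control libraries, and 0 of the 10 had the higher mean in phagocytosis. The 13 markers of border-associated macrophages summed to 189 to 580.1 CPM in phagocytosis libraries and 57.0 to 140 in control libraries, and 13 of 13 had the higher mean in phagocytosis. Ms4a6c (mean 123 CPM in phagocytosis, 54.7 in control) and Siglec1 (116 in phagocytosis, 31.2 in control) made up most of this sum. In phagocytosis each other marker of this list averaged at most 12.8 CPM, the level of Pf4. The 11 monocyte markers summed to 27.3 to 269 CPM in phagocytosis libraries and 18.8 to 91.1 in control libraries, with 11 of 11 higher. In bulk libraries, fewer cells of a type and less RNA per cell cannot be told apart, and the part that these markers play in the results below was not tested. Sums for astrocytes (72.8 to 148 in phagocytosis, 57.0 to 145 in control), neurons (43.0 to 129 in phagocytosis, 18.8 to 55.5 in control), oligodendrocytes (169 to 370 in phagocytosis, 123 to 185 in control), endothelium (17.6 to 69.5 in phagocytosis, 19.7 to 36.2 in control), pericytes and smooth muscle (14.3 to 79.5 in phagocytosis, 3.39 to 16.6 in control) and dendritic cells (24.5 to 195 in phagocytosis, 35.3 to 78.4 in control) were small beside the microglial sum, and the endothelial marker Cldn5 was at 0 in all 24 libraries.

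Per length, the adaptor and its receptor dominated the list. In the deposited TPM (a share of all transcripts, corrected for transcript length) summed per gene, Tyrobp had a median of 2605 TPM in phagocytosis libraries and 2148 TPM in control libraries. Trem2 followed with 713 TPM in phagocytosis and 929 TPM in control, and then Elmo1 with 143 TPM in phagocytosis and 189 TPM in control. Tyrobp lay above Trem2, and Trem2 above Elmo1, in 16 of 16 phagocytosis and 8 of 8 control libraries. Below them, in both states, came Gas6 (median 111 TPM in phagocytosis, 123 TPM in control), Mertk (71.1 TPM in phagocytosis, 73.0 TPM in control), Pros1 (61.2 TPM in phagocytosis, 63.5 TPM in control), Dock2 (33.9 TPM in phagocytosis, 31.7 TPM in control) and Syk (21.5 TPM in phagocytosis, 22.7 TPM in control). Neighbours in this order exchanged places in at most 2 of 16 phagocytosis libraries and 1 of 8 control libraries. Axl and Mfge8 were lowest, at 8.64 and 8.46 TPM in phagocytosis libraries, where Axl was the higher of the pair in 7 of 16, so that their order was not settled there. In control libraries Axl had 3.85 TPM and Mfge8 9.90 TPM, and Mfge8 was the higher in 6 of 8. TPM are compared here between genes within a library and not between the states, because the satellite share changes how much of the fixed TPM sum is left for other genes.

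**Figure D1:**
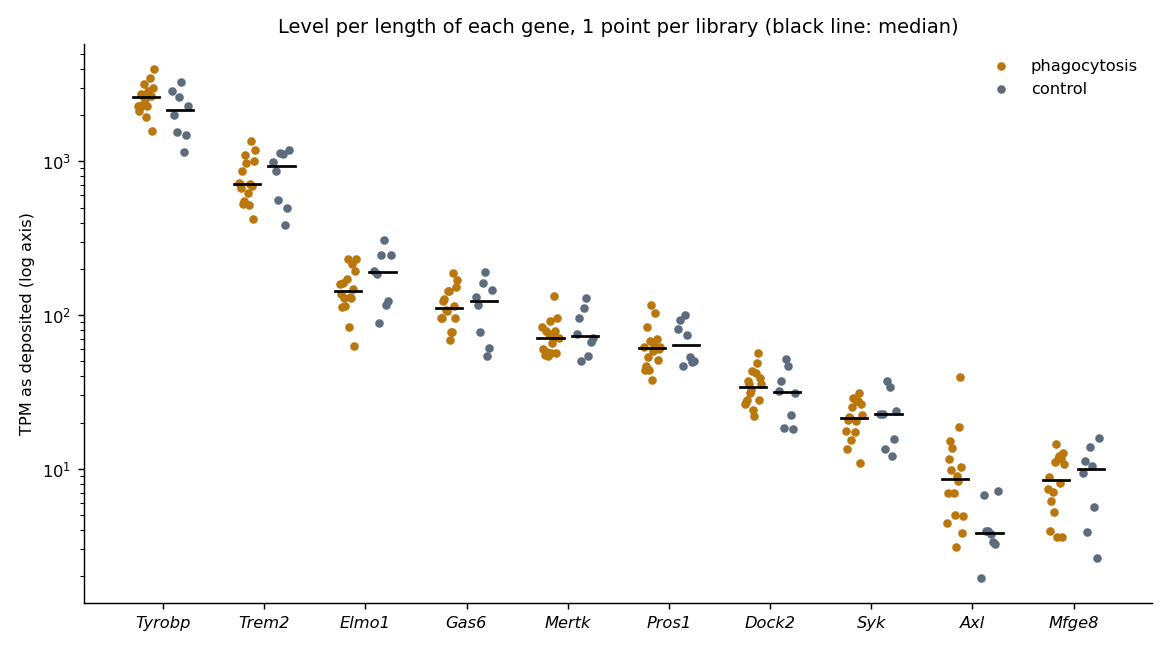
Deposited TPM of each gene on a log axis, 1 point per library, with 16 phagocytosis libraries left of 8 control libraries and a black line at each median. Tyrobp and Trem2 lie above all other genes in every library, and Axl and Mfge8 lie at the bottom.

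The phagocytosis effect, averaged over sexes and genotypes with equal weight, asks how the uptake genes differed between the states. Of the 10 genes, 1 rose (Axl) and 4 fell (Elmo1, Mertk, Pros1 and Syk) at an adjusted p under 0.05 (edgeR quasi-likelihood test, Benjamini-Hochberg over 9803 genes). In the same comparison 13.6% of all genes tested passed, 8.41% higher and 5.18% lower in phagocytosis. The median log2 fold change was -0.31 over the 10 genes and -0.0052 over all genes tested. Leaving out the 3 control libraries over 20% satellite-like leaves 1 control library each in female NL4-/-, male NL4-/- and male WT. Fewer genes passed there: Elmo1 kept its call, and Mertk, Pros1, Syk and Axl lost theirs. The log2 fold changes in that fit were -0.64 for Elmo1, -0.43 for Mertk, -0.30 for Pros1, -0.41 for Syk and 1.39 for Axl. With all controls they were -0.63, -0.53, -0.57, -0.36 and 1.54. With the phagocytosis libraries numbered 3 and 4 only, 3 of the 10 passed (Elmo1, Mertk and Axl) and 782 of all genes. With those numbered 1 and 2 only, 7 of the 10 passed (Elmo1, Mertk, Pros1, Syk and Axl with Trem2 and Gas6) and 1772 of all genes. With 1 library left out the count ran between 2, without male NL4-/- control 1, and 6. With no scaling beyond the library total, 981 genes were higher and 348 lower, against 824 and 508 with the TMM scaling used here.

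**Figure D2:**
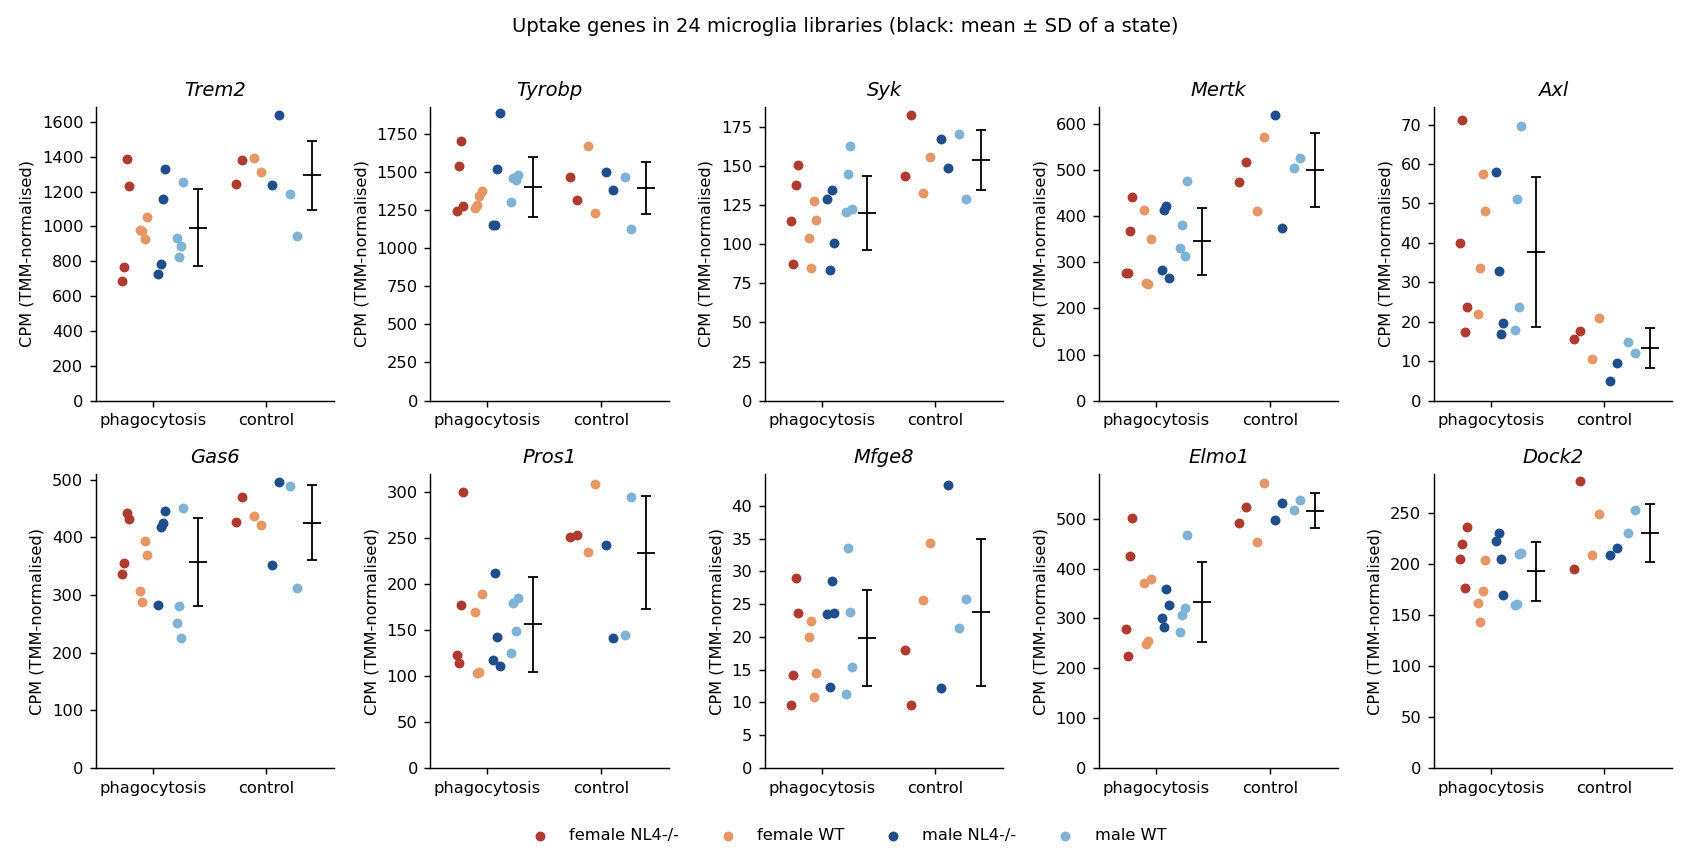
Level of each gene in CPM (TMM-normalised) in each library, coloured by sex and genotype, with 16 phagocytosis libraries left of 8 control libraries and the mean and SD of each state in black. Axl is higher in phagocytosis, Elmo1, Mertk, Pros1 and Syk are lower, and the points of Tyrobp overlap throughout.

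Because the results turn on Axl, Mertk, Elmo1 and Trem2, the promoters of these 4 genes are shown before their values. Each is the RefSeq sequence (build GRCm38.p6) from 250 bases before to 50 after an annotated start, 5′ to 3′ on the gene's strand. Capitals mark every match, on either strand, to 5 short motifs that were chosen with earlier results of these data known. They are the GC box (GGGCGG), a loose AP-1 pattern (TGANTCA, N for any base), the PU.1 core (GGAAGT), the E-box (CACGTG) and a nuclear receptor element (AGGTCA). The Axl window is chr7:25788684-25788983 (minus strand), that of Mertk chr2:128698665-128698964 (plus strand), that of Elmo1 chr13:20090257-20090556 (plus strand, the upstream of 2 listed starts) and that of Trem2 chr17:48346151-48346450 (plus strand).
Axl: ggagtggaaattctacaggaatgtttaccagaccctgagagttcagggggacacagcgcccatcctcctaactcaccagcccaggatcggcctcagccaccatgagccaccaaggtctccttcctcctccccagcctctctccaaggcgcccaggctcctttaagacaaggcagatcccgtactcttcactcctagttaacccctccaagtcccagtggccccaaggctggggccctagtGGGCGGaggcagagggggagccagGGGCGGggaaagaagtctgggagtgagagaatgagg
Mertk: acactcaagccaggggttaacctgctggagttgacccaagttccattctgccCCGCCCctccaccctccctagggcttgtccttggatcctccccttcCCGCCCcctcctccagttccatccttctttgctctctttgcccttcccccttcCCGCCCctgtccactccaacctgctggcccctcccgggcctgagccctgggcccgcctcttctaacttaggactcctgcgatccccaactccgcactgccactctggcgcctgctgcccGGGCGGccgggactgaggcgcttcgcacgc
Elmo1: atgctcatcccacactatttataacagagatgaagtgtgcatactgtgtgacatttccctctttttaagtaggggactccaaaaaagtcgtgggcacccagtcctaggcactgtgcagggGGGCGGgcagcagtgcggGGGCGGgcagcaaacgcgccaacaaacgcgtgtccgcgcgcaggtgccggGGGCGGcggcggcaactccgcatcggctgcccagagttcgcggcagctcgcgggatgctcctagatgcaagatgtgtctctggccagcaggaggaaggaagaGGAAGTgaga
Trem2: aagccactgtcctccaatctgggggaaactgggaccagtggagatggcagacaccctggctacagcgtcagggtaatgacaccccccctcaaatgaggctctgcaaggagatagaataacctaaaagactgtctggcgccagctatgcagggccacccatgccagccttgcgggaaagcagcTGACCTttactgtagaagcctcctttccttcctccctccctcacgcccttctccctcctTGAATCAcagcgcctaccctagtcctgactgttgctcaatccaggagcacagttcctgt
The Axl window held 2 GC boxes, the Mertk window 4, and the Elmo1 window 3 with 1 PU.1 core. The Trem2 window held no GC box but 1 match to the AP-1 pattern, with an A at its open base, and 1 nuclear receptor element. Gas6 and Mfge8 held 4 GC boxes each and Pros1 5, so that a GC box stood in the window of each receptor kinase and bridging protein, whichever way its level went. Syk and Dock2 held 1 PU.1 core each, that of Syk in the downstream of its 2 windows. No E-box was found in any of the 11 windows at hand, which covered 9 of the 10 genes, and no 2 different motifs overlapped. Of 32851 promoters of the same length 35.7% held a GC box, 23.8% a PU.1 core, 16.3% a nuclear receptor element, 7.81% the AP-1 pattern and 7.15% an E-box. A match or its absence describes these letters only.

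Axl (chromosome 7, 25757273 to 25788705, GRCm38) was the receptor that rose. Its lowest, median and highest levels were 16.8, 33.2 and 71.2 CPM in phagocytosis libraries, against 4.85, 13.5 and 20.9 CPM in control libraries. The highest control was female WT control 2, and 12 of 16 phagocytosis libraries lay above it, so the states overlapped in the 4 lowest phagocytosis libraries. Axl averaged 37.7 ± 19.1 CPM in phagocytosis (SD, n = 16) and 13.3 ± 5.07 CPM in control (SD, n = 8), a log2 fold change of 1.54 ± 0.342 (SE, edgeR adjusted p = 0.00322). The counts behind it are small, 10 to 54 reads in a phagocytosis library and 2 to 17 in a control library. The call held in 24 of 24 fits with 1 library left out, at log2 fold changes of 1.44 to 1.72. It was lost without the 3 high-satellite controls (1.39, adjusted p = 0.0865) and with counts scaled by effective length (0.81, adjusted p = 0.207). The border-associated macrophage marker Mrc1 had 9.49 ± 5.90 CPM of library total in phagocytosis and 3.39 ± 2.83 CPM in control, and its part in the level of Axl was not tested. A single coding transcript held 90.1% of the gene's reads over all libraries. Within single libraries of either state its share ran from 0% to 100%. It had reads in 15 phagocytosis and 6 control libraries.

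Mertk (chromosome 2, 128698956 to 128802894), the other receptor of this family that could be tested, fell. Its lowest, median and highest levels were 253, 341 and 476 CPM in phagocytosis libraries, against 374, 511 and 619 CPM in control libraries. Of 16 phagocytosis libraries 10 lay below the lowest control, male NL4-/- control 2, and 5 of 8 controls lay above the highest phagocytosis library. Mertk averaged 345 ± 73.4 CPM in phagocytosis (SD, n = 16) and 499 ± 80.1 CPM in control (SD, n = 8), a log2 fold change of -0.53 ± 0.129 (SE, edgeR adjusted p = 0.00566). The call held in 23 of 24 fits with 1 library left out and was lost without male NL4-/- control 1 (adjusted p = 0.0538) and without the 3 high-satellite controls (-0.43, adjusted p = 0.142). Mertk still exceeded Axl in every library: the ratio of their TPM had a median of 7.93 in phagocytosis libraries (2.00 to 25.1) and 18.4 in control libraries (9.90 to 38.3). Tyro3, the third kinase of the family, was too low to be tested.

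Of the 3 bridging proteins only Pros1 (chromosome 16, 62854307 to 62929346) passed. Its lowest, median and highest levels were 103, 146 and 299.9 CPM in phagocytosis libraries, against 141, 247 and 309 CPM in control libraries. Of 16 phagocytosis libraries 7 lay below the lowest control, and female NL4-/- phagocytosis 4, at the top of its state, lay among the highest controls. Pros1 averaged 156 ± 51.7 CPM in phagocytosis (SD, n = 16) and 234 ± 61.7 CPM in control (SD, n = 8), a log2 fold change of -0.57 ± 0.178 (SE, edgeR adjusted p = 0.0325). The call held in 10 of 24 fits with 1 library left out, namely without female NL4-/- phagocytosis 4, female WT phagocytosis 1, 3 or 4, male NL4-/- phagocytosis 2, male WT phagocytosis 2 or 4, male NL4-/- control 2, female WT control 1 or male WT control 1. Pros1 also passed with DESeq2 (adjusted p = 0.0181) and with library totals as the only scaling (edgeR adjusted p = 0.0424). It did not pass with length-scaled counts (-0.50, adjusted p = 0.0625) or with the phagocytosis libraries numbered 3 and 4 only (-0.49, adjusted p = 0.122). Without the 3 high-satellite controls Pros1 had -0.30, and its call was lost. Gas6 (chromosome 8, 13465374 to 13494490), which engages both AXL and MERTK, averaged 357 ± 76.2 CPM in phagocytosis and 426 ± 65.0 CPM in control, a log2 fold change of -0.26 ± 0.125 that did not pass (adjusted p = 0.177; 95% interval -0.53 to 0.005). Its unadjusted edgeR p was 0.0467, and the interval is wider than that test implies. Gas6 passed with the phagocytosis libraries numbered 1 and 2 only (-0.40, adjusted p = 0.0357), and had -0.096 with those numbered 3 and 4 only (adjusted p = 0.729) and -0.40 without the 3 high-satellite controls (adjusted p = 0.150). Its annotated span overlaps Tmem255b on the other strand, which had 8 reads over all libraries. Mfge8 (chromosome 7, 79133768 to 79149060) was measured by 6 to 25 reads in a phagocytosis library and 5 to 28 in a control library, and its 19.8 ± 7.34 CPM in phagocytosis and 23.7 ± 11.2 CPM in control gave -0.19 ± 0.266 (adjusted p = 0.7; 95% interval -0.75 to 0.37). This interval spans changes as large as those called for Mertk. With 1 library left out Mfge8 ran between -0.34 and 0.14, and its sign turned without male NL4-/- control 2.

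In the TREM2 complex neither the receptor nor its adaptor passed. Tyrobp (chromosome 7, 30413760 to 30417585) averaged 1400.3 ± 197 CPM in phagocytosis (SD, n = 16) and 1393 ± 171 CPM in control (SD, n = 8), a log2 fold change of 0.0077 ± 0.105 (edgeR adjusted p = 0.982; 95% interval -0.21 to 0.23). Trem2 (chromosome 17, 48346401 to 48354147) had lowest, median and highest levels of 689, 951 and 1385 CPM in phagocytosis libraries, against 945, 1279 and 1640 CPM in control libraries. Of 16 phagocytosis libraries 8 lay below the lowest control, male WT control 2, and the rest overlapped the controls. The mean was 994 ± 221 CPM in phagocytosis and 1293 ± 199 CPM in control, and the log2 fold change of -0.37 ± 0.129 missed the threshold (adjusted p = 0.0541; 95% interval -0.64 to -0.097). Trem2 passed in 4 of 24 fits with 1 library left out, those without female NL4-/- phagocytosis 3 or 4, male NL4-/- phagocytosis 4 or male WT phagocytosis 4. It also passed without a filter on low counts (adjusted p = 0.0225), with length-scaled counts (-0.44, adjusted p = 0.0442) and with the phagocytosis libraries numbered 1 and 2 only (-0.59, adjusted p = 0.000693), and had -0.16 with those numbered 3 and 4 only (adjusted p = 0.429). Nor did Trem2 pass with DESeq2 (adjusted p = 0.0569), with library totals as the only scaling (-0.31, edgeR adjusted p = 0.135) or with a filter of 5 CPM in 8 libraries (adjusted p = 0.0758). Without the 3 high-satellite controls Trem2 had -0.46 and did not pass. Within a library the TPM ratio of Tyrobp to Trem2 had a median of 3.26 in phagocytosis (2.59 to 4.84) and 2.83 in control (1.94 to 2.98).

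Syk (chromosome 13, 52583173 to 52648792), the kinase recruited to DAP12, passed only just. Its lowest, median and highest levels were 83.6, 121 and 162 CPM in phagocytosis libraries, against 129, 152 and 183 CPM in control libraries. Of 16 phagocytosis libraries 11 lay below the lowest control, male WT control 2. Syk averaged 120.1 ± 23.5 CPM in phagocytosis and 154 ± 19.0 CPM in control, a log2 fold change of -0.36 ± 0.121 (SE, edgeR adjusted p = 0.0463). It also passed with DESeq2 (adjusted p = 0.0383) and with length-scaled counts (edgeR adjusted p = 0.039). It did not pass with library totals as the only scaling (adjusted p = 0.145), without a filter on low counts (0.133) or with the phagocytosis libraries numbered 3 and 4 only (0.301). Without the 3 high-satellite controls Syk had -0.41, and its call was lost. The call was kept in 3 of 24 fits with 1 library left out (without female NL4-/- phagocytosis 4, female WT phagocytosis 3 or male WT phagocytosis 3), at adjusted p from 0.0373 to 0.173 over the 24, and in 24 of 24 the sign was the same. The authors' division of its reads between its coding transcripts differed between libraries: the most used of them had 47.7 ± 40.7 CPM in phagocytosis and 93.3 ± 60.4 CPM in control, whereas the next had 53.7 ± 48.2 CPM in phagocytosis and 35.7 ± 61.7 CPM in control, each with libraries at 0. The sum over transcripts does not depend on that division.

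The Rac activator Elmo1 (chromosome 13, 20090596 to 20608353) fell with the smallest adjusted p of the 10 genes. Its lowest, median and highest levels were 224, 314 and 501 CPM in phagocytosis libraries, against 454, 520.4 and 572 CPM in control libraries. Of 16 phagocytosis libraries 14 lay below the lowest control, female WT control 1, and the 2 that did not were female NL4-/- phagocytosis 4 and male WT phagocytosis 4. No gene of the list separated the states fully, as 0.796% of all genes tested did with phagocytosis above control and 0.0714% with phagocytosis below. Elmo1 averaged 333 ± 79.8 CPM in phagocytosis (SD, n = 16) and 516 ± 35.1 CPM in control (SD, n = 8), a log2 fold change of -0.63 ± 0.128 (SE, edgeR adjusted p = 0.00134). The call held in 24 of 24 fits with 1 library left out (-0.67 to -0.55) and without the 3 high-satellite controls (-0.64, adjusted p = 0.029). Both of its main coding transcripts had lower means: the longer had 163 ± 43.7 CPM in phagocytosis and 256 ± 23.1 CPM in control, and the shorter had 105 ± 44.3 CPM in phagocytosis and 152 ± 40.2 CPM in control, values that were not tested. Its partner gene Dock2 (chromosome 11, 34226815 to 34783892), a Rac exchange factor of cells of blood origin, averaged 193 ± 28.9 CPM in phagocytosis and 230.4 ± 28.7 CPM in control, and its log2 fold change of -0.26 ± 0.106 did not pass (adjusted p = 0.104; 95% interval -0.48 to -0.036). A retained-intron transcript held 34.0% of the reads of Dock2, and the gene overlaps Fam196b on the other strand, which had 487 reads over all libraries. This overlap is one of annotated spans, introns included, and whether both genes share transcribed sequence was not examined.

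Within each sex and genotype, 4 phagocytosis libraries were set against 2 controls. Here 0 of the 10 genes passed in any group, where 0.459% of all genes passed in female NL4-/-, 0.581% in female WT, 0.602% in male NL4-/- and 0.326% in male WT. The signs were alike across groups for most genes. Axl had log2 fold changes of 1.11 in female NL4-/-, 1.35 in female WT, 2.10 in male NL4-/- and 1.59 in male WT. Elmo1 had -0.50, -0.71, -0.70 and -0.62 in the same 4 groups, and Mertk -0.54, -0.62, -0.52 and -0.45. Pros1, Syk, Trem2, Gas6 and Dock2 were also negative in 4 of 4 groups, Tyrobp in 2 and Mfge8 in 3. Trem2 and Syk were nearest to 0 in male WT, at -0.13 and -0.12.

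**Figure D3:**
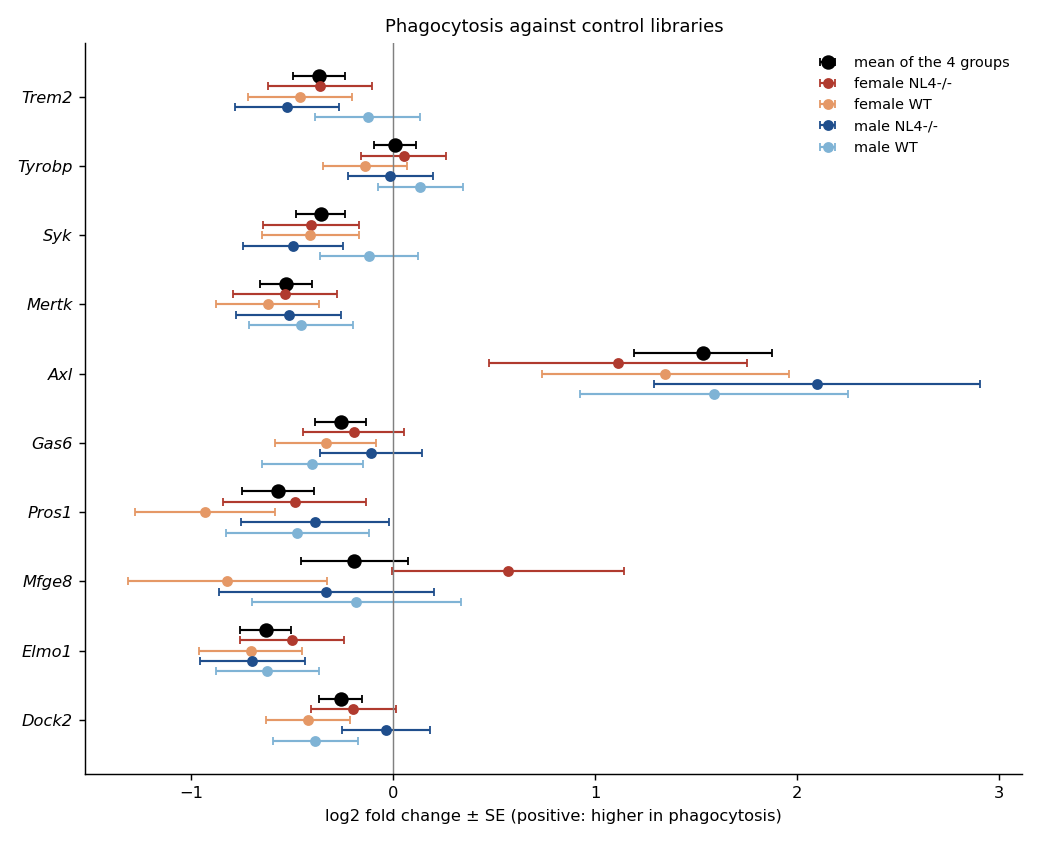
Log2 fold change of phagocytosis over control with its standard error for each gene, as the equal-weight mean of all 4 groups (black) and within each group (4 against 2 libraries). Axl lies right of 0 and Elmo1, Mertk and Pros1 lie left of 0 in all 4 groups.

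Phagocytosis libraries of a group also differed among themselves, and the label numbers followed part of this. Trem2 averaged 834 CPM in the libraries numbered 1 and 2 and 1155 CPM in those numbered 3 and 4. In female NL4-/- these means were 729 and 1309 CPM and in male NL4-/- 753 and 1245 CPM, whereas in female WT they were 975 and 991 CPM. Elmo1 averaged 286 CPM in numbers 1 and 2 and 379 CPM in numbers 3 and 4. The microglial marker sum followed the same numbers, at 24178 CPM in numbers 1 and 2 and 35201 CPM in numbers 3 and 4, whereas the border-associated macrophage sum was 382 CPM in numbers 1 and 2 and 254 CPM in numbers 3 and 4. The part of either in these values was not tested. Axl differed in direction between groups: it averaged 55.6 CPM in numbers 1 and 2 and 20.6 CPM in numbers 3 and 4 of female NL4-/-, with 45.4 CPM in numbers 1 and 2 and 18.3 CPM in numbers 3 and 4 of male NL4-/-. In female WT it averaged 27.8 CPM in numbers 1 and 2 and 52.8 CPM in numbers 3 and 4. These differences were not tested. The labels do not say what a number stands for.

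Across the 16 phagocytosis libraries, genes with the most similar pattern were looked up for 3 of the receptors, as a description over libraries that share their group structure and the differences by number just given. Pearson r was computed on log2 CPM among 3687 or 3688 genes with a mean of at least 50 CPM. Trem2 was most like Ctsd, a lysosomal protease (r = 0.930), Ighm (0.918), the fructose transporter gene Slc2a5 (0.917) and the purine receptor gene P2ry12 (0.911), and these r were 0.914, 0.880, 0.896 and 0.903 without the 2 libraries farthest from the median of Trem2. Mertk was most like Lifr, a cytokine receptor (0.893), Ivns1abp (0.856), Frmd4b (0.853) and Pros1 (0.845), one of its own ligands. Without the 2 libraries farthest from the median of Mertk these r were 0.865, 0.844, 0.7997 and 0.846. Among the 10 genes Elmo1 also ran with Mertk (0.754), Pros1 (0.755) and Trem2 (0.718). Axl was most like the scavenger receptor gene Marco (0.826), Clasrp (0.815), the proteasome activator gene Psme1 (0.772) and Sugp2 (0.765), which were 0.781, 0.784, 0.692 and 0.692 without the 2 libraries farthest from the median of Axl. Over all 16 libraries its r with Mertk was -0.21 and with Trem2 -0.47.

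Other genes of these pathways were counted in lists that leave out the 10 genes. Of 35 genes of TREM2 and ITAM signalling 31 were tested, of which 1 rose and 6 fell, with a median log2 fold change of -0.21, beside 8.41% higher and 5.18% lower among all genes tested. Those that fell included Inpp5d, the lipid phosphatase SHIP1 that counters TREM2 signalling (692 ± 88.6 CPM in phagocytosis and 941 ± 119 CPM in control, log2 fold change -0.44 ± 0.0932, edgeR adjusted p = 0.0019), Plcg2, a phospholipase downstream of SYK (-0.45 ± 0.128, adjusted p = 0.0181), and the phosphoinositide kinase genes Pik3cd (-0.55 ± 0.161, adjusted p = 0.0216) and Pik3cg (-0.43 ± 0.127, adjusted p = 0.023). The gene that rose was Apoe, a lipoprotein that binds TREM2, at 1334 ± 874 CPM in phagocytosis and 557 ± 197 CPM in control (1.28 ± 0.313, adjusted p = 0.0116). The count of 6 was 2 with library totals as the only scaling and 1 (Inpp5d) without the 3 high-satellite controls, where the log2 fold changes were -0.48 for Plcg2, -0.54 for Pik3cd, -0.45 for Pik3cg and 1.14 for Apoe (adjusted p = 0.164).

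Of 27 other phosphatidylserine receptors and bridging proteins 16 were tested, of which 4 rose and 3 fell, with a median of -0.030, beside the same 8.41% higher and 5.18% lower among all genes. Anxa5, which binds and covers phosphatidylserine, rose to 213 ± 64.8 CPM in phagocytosis, against 28.0 ± 6.93 CPM in control (2.89 ± 0.209, edgeR adjusted p = 3.31e-10), and did so in 24 of 24 fits with 1 library left out. Stab1, a receptor that binds the lipid directly, rose (0.52 ± 0.106, adjusted p = 0.00147), as did the complement opsonin gene C1qc (0.91 ± 0.211, adjusted p = 0.00637) and the scavenger receptor gene Cd36, with 26.2 ± 15.7 CPM in phagocytosis and 4.09 ± 5.15 CPM in control (adjusted p = 4.24e-05). The integrin genes Itgb3 (-0.89 ± 0.191, adjusted p = 0.00216) and Itgb5 (-0.37 ± 0.115, adjusted p = 0.03), whose products take up MFGE8-coated particles, fell, and so did Gpr34, a lysophosphatidylserine receptor that is also a microglial marker (-1.21 ± 0.339, adjusted p = 0.025). Without the 3 high-satellite controls Anxa5, Cd36 and Itgb5 still passed and the other 4 did not, at log2 fold changes of 0.44 for Stab1 (adjusted p = 0.0631), 1.03 for C1qc (adjusted p = 0.0517), -0.78 for Itgb3 (adjusted p = 0.0705) and -0.78 for Gpr34 (adjusted p = 0.378). The border-associated macrophage sum was higher in phagocytosis as well, at 189 to 580.1 CPM against 57.0 to 140 CPM in control, and its part in these levels was not tested.

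Of 29 other genes of engulfment signalling 26 were tested, of which 2 rose and 1 fell (median -0.066), a share near the 13.6% of all genes tested that passed, so the count says nothing about this list. The actin-branching subunits Arpc2 (0.41 ± 0.104, edgeR adjusted p = 0.00798) and Arpc3 (0.47 ± 0.147, adjusted p = 0.0296) rose and Abi3, an actin regulator of microglia, fell (-0.43 ± 0.135, adjusted p = 0.0311). Of these Arpc2 alone passed without the 3 high-satellite controls, where Arpc3 had 0.53 (adjusted p = 0.123) and Abi3 -0.49 (adjusted p = 0.109). Among 14 tested of 17 genes of phosphatidylserine exposure and inhibitory receptors, the inhibitory receptor gene Pilra rose (0.52 ± 0.168, adjusted p = 0.0353) and Siglech, also a microglial marker, fell (-0.80 ± 0.244, adjusted p = 0.0358). These 2 of 14 are again a share near that of all genes. Neither passed without the 3 high-satellite controls, where Pilra had 0.50 (adjusted p = 0.233) and Siglech -0.84 (adjusted p = 0.168).

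NL4-/- was compared with WT within each state, which asks whether loss of neuroligin-4 went with a different level of the uptake genes. In phagocytosis libraries 0 of the 10 genes and 0% of 9803 genes passed (edgeR; 500 genes had an unadjusted p under 0.05, and DESeq2 called 1). Gas6 came nearest. Its lowest, median and highest levels were 283, 421 and 447 CPM in NL4-/- phagocytosis libraries, against 225, 298 and 452 CPM in WT phagocytosis libraries, and the genotypes overlapped across nearly the whole range. Gas6 averaged 392 ± 60.2 CPM in NL4-/- and 321 ± 77.2 CPM in WT (SD, 8 libraries each), a log2 fold change of 0.29 ± 0.146 (SE, edgeR adjusted p = 0.944; 95% interval -0.019 to 0.60). Dock2 had 208 ± 24.2 CPM in NL4-/- and 178 ± 26.3 CPM in WT phagocytosis libraries (0.23 ± 0.123, adjusted p = 0.944; 95% interval -0.035 to 0.49).

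Trem2 averaged 1009 ± 295 CPM in NL4-/- and 979 ± 132 CPM in WT phagocytosis libraries (log2 fold change 0.044 ± 0.151; 95% interval -0.27 to 0.36), and Mertk 343 ± 75.4 CPM in NL4-/- and 347 ± 76.5 CPM in WT (-0.0080 ± 0.152; 95% interval -0.33 to 0.31). Axl averaged 35.0 ± 20.2 CPM in NL4-/- and 40.5 ± 18.8 CPM in WT phagocytosis libraries (-0.24 ± 0.323), with a 95% interval of -0.93 to 0.44 that leaves room for a difference in either direction. This average joins opposite differences by label number. In numbers 1 and 2 females had 55.6 CPM in NL4-/- and 27.8 in WT, and males 45.4 and 34.5. In numbers 3 and 4 females had 20.6 CPM in NL4-/- and 52.8 in WT, and males 18.3 and 46.8. Axl did not pass for genotype with numbers 3 and 4 only (edgeR adjusted p = 0.257). In control libraries, with 4 per genotype, 0 of the 10 genes and 0% of all genes passed (331 with an unadjusted p under 0.05, and DESeq2 called 2). There the log2 fold changes of the 10 genes ran from -0.47 (Mfge8) to 0.20 (Trem2), and their 95% intervals reached from -1.70 to 0.94. Within each sex and state 0 of the 10 genes passed either, and edgeR called 0% of all genes in each of these comparisons. The 4 pathway lists described above had 0 genes passing for genotype in either state.

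**Figure D4:**
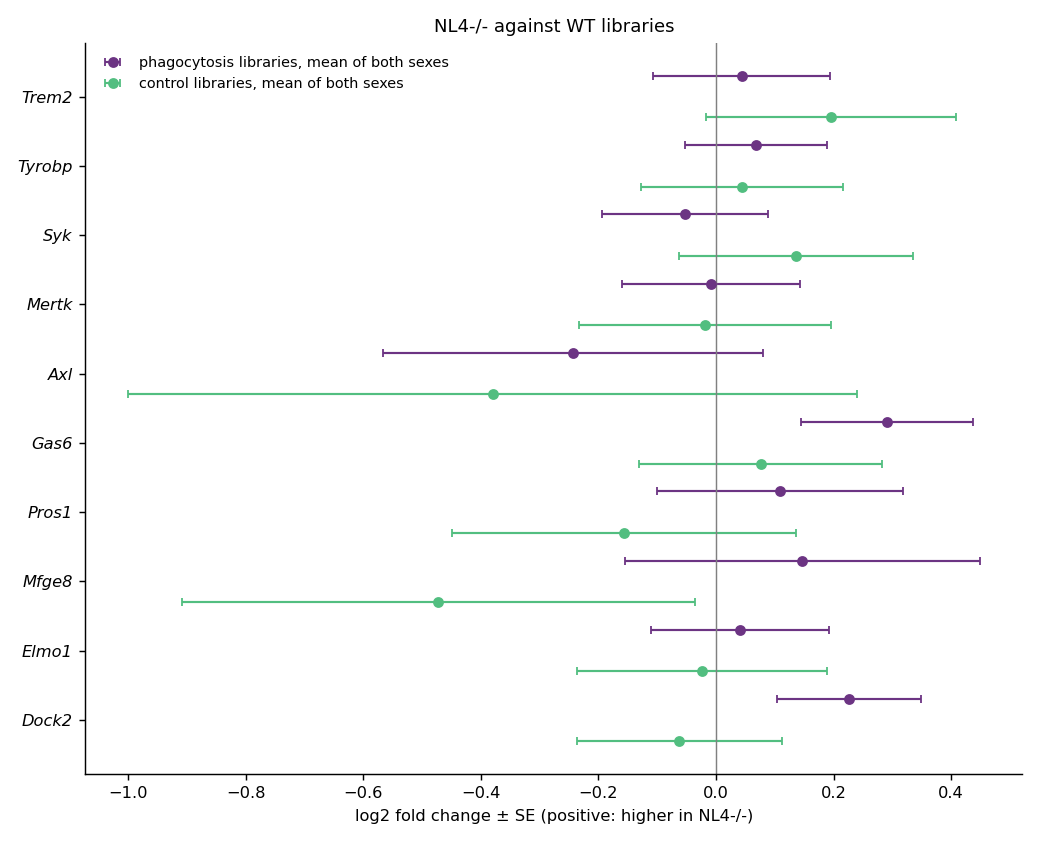
Log2 fold change of NL4-/- over WT with its standard error for each gene, in phagocytosis libraries (8 per genotype) and in control libraries (4 per genotype), each as the mean of both sexes. The phagocytosis estimates lie between -0.24 (Axl) and 0.29 (Gas6), and the control estimates have wider errors.

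Between male and female libraries 0 of the 10 genes passed, where 0.0612% of all genes did. The log2 fold changes of the 10 genes ran from -0.40 (Axl, 27.6 ± 20.9 CPM in 12 male and 31.5 ± 18.9 CPM in 12 female libraries) to 0.29 (Mfge8, 22.9 ± 9.47 CPM in male and 19.3 ± 7.98 CPM in female libraries). The phagocytosis effect was also tested for a difference between NL4-/- and WT, and between male and female, and the genotype effect within phagocytosis for a difference between male and female. None of the 10 genes passed in any of these 3 tests, in which edgeR called 0 of all genes (276, 190 and 467 had an unadjusted p under 0.05, and DESeq2 called 1, 1 and 2). For Elmo1 the phagocytosis effect in NL4-/- minus that in WT was 0.065 ± 0.261, and for Axl 0.14 ± 0.703.

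**Figure D5:**
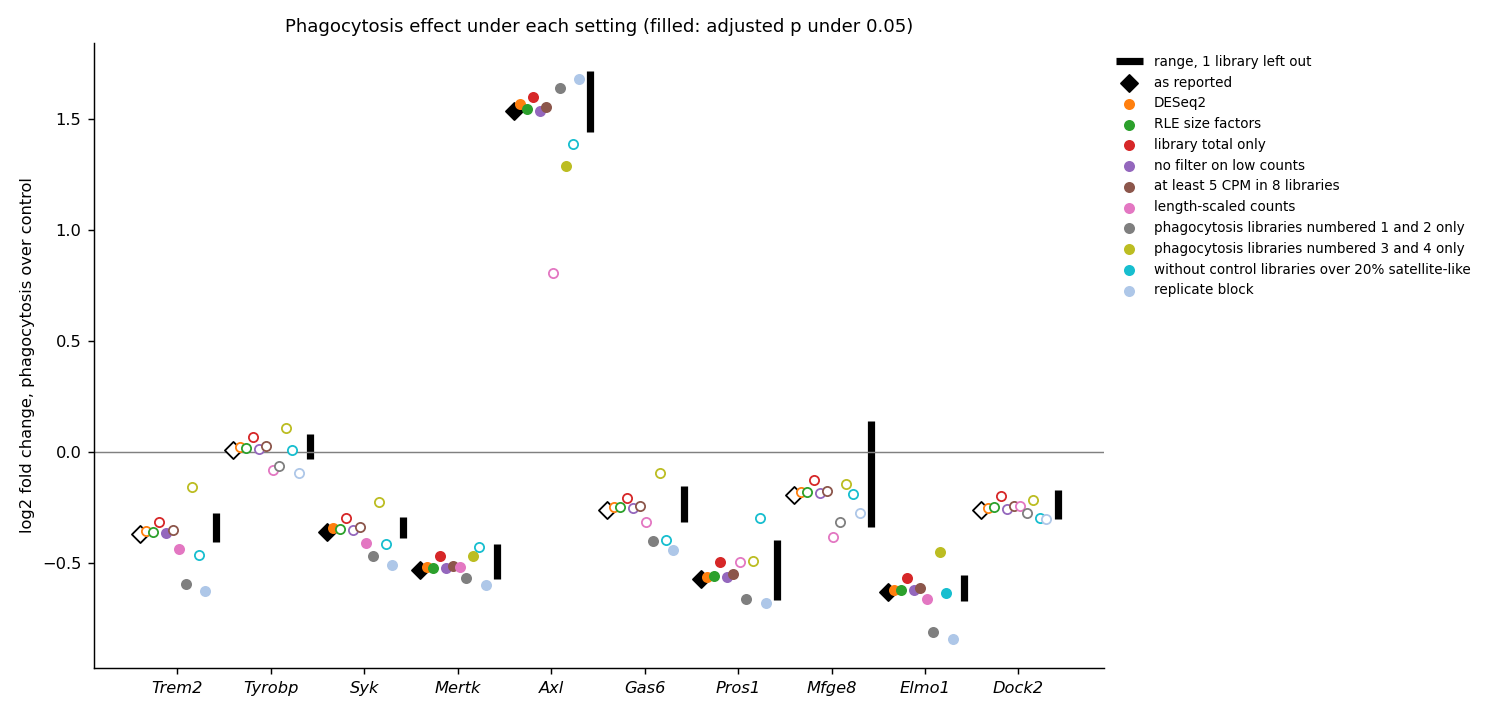
Log2 fold change of phagocytosis over control for each gene as reported (black diamond) and under 10 other settings (circles), filled where the adjusted p was under 0.05, with a black bar for the range over 24 fits that leave out 1 library. Elmo1 is filled under every setting, Axl is open with length-scaled counts and without the high-satellite controls, and Trem2 and Syk are filled under some settings only.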

How the data were processed

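RNA was measured in 24 Smart-Seq2 libraries. Per the file headers, the authors deposited an expected count and TPM for each transcript beside its lengths, as salmon-type quantifiers write. The tool and index were not given in the sources used here. Expected counts as deposited are not normalised and split shared reads between transcripts. GENCODE vM21 (GRCm38) held 116023 of the 116945 transcripts, and the 922 others (0.274% to 0.379% of reads) were dropped. Expected counts were summed per gene and rounded, and the deposited TPM were summed per gene for levels between genes.

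The test was edgeR 4.0.16's quasi-likelihood F test (robust) in 1 fit of 8 group means, after TMM scaling (factors 0.884 to 1.08) and filterByExpr by group (minimum count 10). The biological coefficient of variation was 0.285. P-values were two-sided and adjusted by Benjamini-Hochberg over 9803 genes, with a threshold of 0.05, in each of 15 comparisons. Log2 fold changes carry a prior count of 0.125, the standard error was worked back from the F statistic, and 95% intervals use 16 residual degrees of freedom and are not adjusted for the number of genes. The test adds degrees of freedom borrowed across genes, so the intervals are wider than its unadjusted p-values imply. CPM are TMM-normalised, except marker sums, which are per library total. P-values measure the spread between these libraries. Reads without molecular identifiers are not independent molecules, and a gene at 20 CPM rested on about 10 to 20 reads. DESeq2 1.42.0 was an alternative. The code was tested on simulated data.

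The 10 genes, the pathway lists, the marker lists and the motifs were chosen with earlier results of these data known. The 10 genes are all described; from each pathway list up to 4 others per direction with the smallest adjusted p are named, and the 4 genes most like Trem2, Mertk and Axl by Pearson r. A further list, of kinase feedback and nuclear receptors, is not reported here.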

Additional observations from a re-analysis of the deposited data

Results flagged for a closer look

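Tyrobp in male WT phagocytosis 1 stood apart from the other 3 libraries of its group, at 1299 CPM where the others had 1446 to 1476 CPM. Its gap to the nearest of them, divided by the range of the group, was just past the 95% critical value of Dixon's test. It was the only such case among 40 combinations of gene and phagocytosis group, and chance gives about 1 in 20. The value lies within the range of the other phagocytosis groups.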

How the results depend on the processing

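No result changed sign together with a call. In phagocytosis against control, 1332 genes passed; 782 did with phagocytosis numbers 3 and 4 only, 1772 with numbers 1 and 2 only, 410 without the 3 high-satellite controls, and 781 to 1508 with 1 library left out (lowest without female WT control 2). Of the 10 genes, 5 passed, against 3 with numbers 3 and 4 only, 7 with numbers 1 and 2 only, 1 without the high-satellite controls and 2 (without male NL4-/- control 1) to 6 with 1 library left out. Within the sex and genotype groups 0 passed, against 1 without a filter on low counts, 3 with numbers 1 and 2 only and 2 with the replicate block. For genotype in phagocytosis 0 genes passed, against 1 with DESeq2, 20 without a filter, 1 with numbers 1 and 2 only and 2 with numbers 3 and 4 only. For genotype in control 0 passed, against 2 with DESeq2, 20 without a filter, 2 with numbers 1 and 2 only, 6 with numbers 3 and 4 only, 17 with the 8 control libraries alone and 0 to 1 with 1 library left out. Between male and female 6 passed, against 21 with DESeq2, 39 without a filter, 13 with numbers 3 and 4 only, 2 without the high-satellite controls and 3 to 9 with 1 library left out. The causes were not tested. No pairing by single replicate number was seen. Same-numbered phagocytosis libraries of different groups had a mean correlation of deviations from group means of 0.020 (over 0.1 in 3 of 24 pairs). Differently numbered ones had -0.0065 (over 0.1 in 6 of 72 pairs), and 5 of 24 libraries correlated best with their own number. This check cannot show a difference of numbers 1 and 2 from 3 and 4, because 1 with 2 counts as different numbers. With the replicate block 1646 genes passed, and Trem2 (-0.62, edgeR adjusted p = 0.000783) and Gas6 (-0.44, adjusted p = 0.019) joined the 5 genes. Control libraries carry numbers 1 and 2 only. With the block, the averaged phagocytosis effect therefore rests on phagocytosis numbers 1 and 2. It is not a check apart from the fit with numbers 1 and 2 only, where Trem2 and Gas6 also passed. Axl and Mfge8 rest on the fewest reads of the 10 genes.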
